A study of Arabidopsis thaliana with 24 samples.

Results

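The 8 Arabidopsis thaliana genes described here are dark-inducible and low-energy markers, genes whose transcripts are known to build up when leaves run short of sugar. They were chosen by locus as DIN10 (AT5G20250), SEN1 (AT4G35770), ASN1 (AT3G47340), DRM2 (AT2G33830), BCAT2 (AT1G10070), MCCA (AT1G03090), IVD (AT3G45300) and AT1G80440. AT1G80440 carries no symbol in the deposited table and is called KMD1 below, a synonym that RefSeq gives it. All 8 were found among the 24503 genes of the table, and all 8 were among the 19614 genes that passed the filter on low counts. The libraries were made from whole rosettes of soil-grown plants aged 3 weeks under a 12 h photoperiod. The control line was the wild type Col-0. The mutant line jaz4-1 was derived from it by a T-DNA insertion and is described by the submitters as a knockout of JAZ4, which encodes a JAZ repressor of jasmonate signalling. Each line was sampled at dawn (ZT0, where ZT counts hours after lights on), at midday (ZT6), at dusk (ZT12) and at midnight (ZT18), with 3 replicates of 6 pooled rosettes at each time. No treatment was given beyond the day and night cycle, and jaz4-1 was the only insertion line, so the insertion and anything else that differs between these seed stocks cannot be told apart.

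In leaves, starch stored during the day feeds the plant at night, and carbon is normally scarcest near the end of the night. The SnRK1 kinase, the plant relative of yeast Snf1 and mammalian AMPK, acts when energy is low, and it works in part through bZIP transcription factors of groups C and S1. Its known targets include genes that release nitrogen and carbon from amino acids, and sugar lowers many of these transcripts while darkness raises them. DIN10 belongs to the raffinose synthase-like family, SEN1 (also DIN1) is a senescence-associated protein, and ASN1 (also DIN6) makes asparagine, a nitrogen-rich transport form. DRM2 is here the dormancy-associated protein of the auxin-repressed family, not the DNA methyltransferase of the same symbol. BCAT2, IVD and MCCA act in turn on branched-chain amino acids: an aminotransferase, isovaleryl-CoA dehydrogenase, and a subunit of methylcrotonyl-CoA carboxylase in leucine breakdown. KMD1 is a kelch-repeat F-box protein, the part of an E3 ubiquitin ligase that picks the substrate.

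The 250 bases before the annotated start of 3 of these genes are printed because bZIP factors bind ACGT cores and because TATCCA letters are known from sugar-responsive promoters. ASN1 is a textbook target of such bZIP factors, and DIN10 and KMD1 gave the largest line differences that passed the test below. The sequences were read from the TAIR10.1 genome with RefSeq's gene starts, on the strand of the gene. Capitals mark the G-box CACGTG, the bare core ACGT, and TATCCA, which reads TGGATA on the opposite strand.
ASN1 (chr3:17441432-17441681, minus strand): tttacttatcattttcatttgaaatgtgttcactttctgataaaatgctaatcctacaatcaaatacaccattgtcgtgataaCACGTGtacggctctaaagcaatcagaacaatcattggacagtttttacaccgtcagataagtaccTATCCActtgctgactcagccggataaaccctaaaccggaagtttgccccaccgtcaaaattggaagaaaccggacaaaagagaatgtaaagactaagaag
DIN10 (chr5:6833314-6833563, plus strand): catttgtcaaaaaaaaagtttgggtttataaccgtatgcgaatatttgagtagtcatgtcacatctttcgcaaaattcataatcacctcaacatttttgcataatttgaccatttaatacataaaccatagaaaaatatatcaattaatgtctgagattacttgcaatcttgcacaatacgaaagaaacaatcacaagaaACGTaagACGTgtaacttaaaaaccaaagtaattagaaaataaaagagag
KMD1 (chr1:30241202-30241451, plus strand): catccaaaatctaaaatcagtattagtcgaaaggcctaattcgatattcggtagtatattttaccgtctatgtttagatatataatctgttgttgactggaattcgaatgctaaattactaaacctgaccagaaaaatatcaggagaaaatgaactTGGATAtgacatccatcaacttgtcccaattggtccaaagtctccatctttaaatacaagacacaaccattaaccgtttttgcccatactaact
In ASN1 the G-box CACGTG began 167 bases before the start and a TATCCA began 101 bases before it. DIN10 held 2 ACGT cores, beginning 50 and 43 bases before the start, and KMD1 held 1 TATCCA on the opposite strand, 94 bases before the start. Over all 8 genes, searched on both strands, CACGTG was present in 1, ACGT (which also lies inside CACGTG) in 3 and TATCCA in 3. The same letters were present in 6.5%, 44.1% and 13.6% of the 27443 promoters of that length. ACTCAT and AAATATCT were in none of the 8, and in 12.3% and 4.8% of all promoters. These matches describe letters and do not show that a factor binds.

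The values are read counts divided by a size factor for each library, called rescaled reads below. The 24 libraries held 16832226 to 22644745 reads assigned to genes, and 18959 to 21863 genes had a read. Replicate 2 of Col-0 ZT0 (18959) and replicate 2 of jaz4-1 ZT6 (19151) were the lowest in genes detected. All 4 mesophyll markers were present and summed to 33360.2 to 60955.2 CPM (counts scaled to a common library total) per library. Root markers summed to at most 0.309 CPM and floral markers to at most 1.76 CPM. JAZ4 itself was barely detected: Col-0 libraries ranged from 0 to 18.4 rescaled reads and jaz4-1 libraries from 0 to 7.71. Over 12 libraries each, JAZ4 had 93 reads in Col-0 and 31 in jaz4-1, and none of the sources used here gives the position of the insertion, so this is a weak check of the labels. Because whole rosettes were pooled, fewer cells of a type and less RNA per cell cannot be told apart.

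Most of these genes followed the day. Counting a gene as changed when limma's adjusted p, over all 19614 genes, was under 0.05, 6 of 8 changed over the 4 times in Col-0 and the same number in jaz4-1. The background was wide, since 49.1% of all genes changed over time in Col-0 and 53.5% in jaz4-1. BCAT2 and IVD did not pass in either line. The median range between the highest and lowest time was 2.47 on the log2 scale over the 8 genes in Col-0, against 0.78 over all genes, and 2.04 against 0.84 in jaz4-1. DIN10, SEN1 and ASN1 had their highest mean at dawn or midday and their lowest at dusk or midnight in both lines. KMD1 did too, but its jaz4-1 dusk libraries overlapped those of dawn. MCCA was highest at dawn, and DRM2 ran the other way, highest at dusk. Between lines, only DIN10 at midday and KMD1 at dusk passed the test at a single time, and both were higher in jaz4-1. Of all genes, 2.95% passed between lines at midday and 0.321% at dusk.

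**Figure D1:**
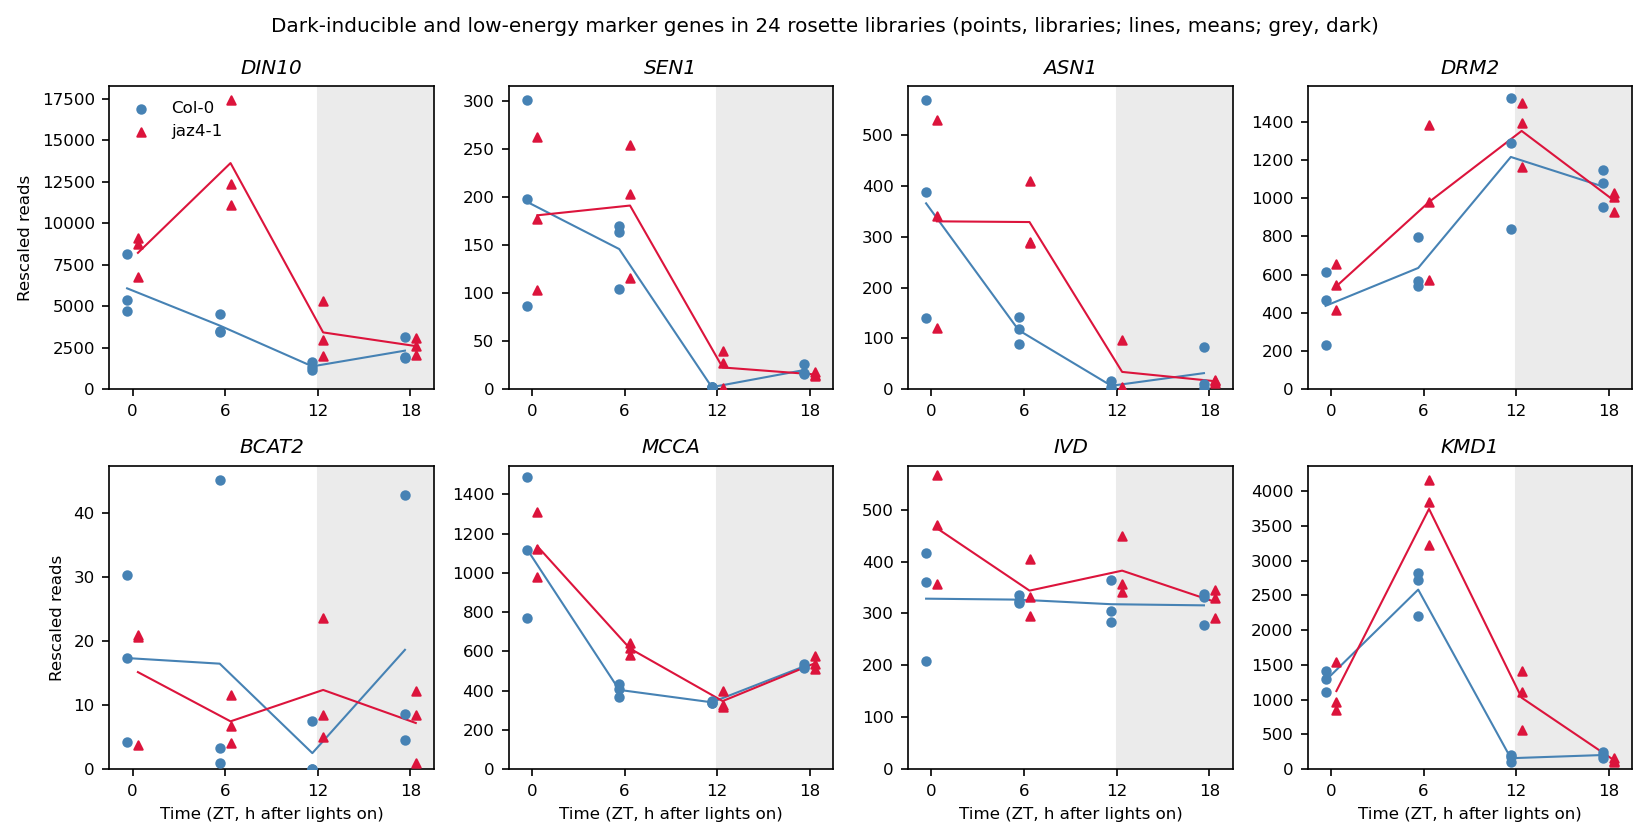
Rescaled reads (linear axis from 0, scaled apart for each gene) against time in hours after lights on for the 8 genes. Points are libraries, 3 per line and time, lines join the means and grey marks the dark; DIN10 at ZT6 and KMD1 at ZT12 show jaz4-1 libraries that all lie above the Col-0 libraries.

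Levels of different genes were compared as CPM per kilobase of merged exons, a scale that corrects for length. By group means over 3 libraries, DIN10 ranged from 25.5 to 193 over the 8 groups, DRM2 from 17.6 to 68.0 and KMD1 from 4.02 to 95.3. MCCA lay between 7.12 and 18.4 and IVD between 9.11 and 13.2, so these enzymes of leucine breakdown were present at like levels. SEN1 ranged from 0.0975 to 7.01, ASN1 from 0.147 to 6.03 and BCAT2 from 0.0851 to 0.641. BCAT2 had the lowest mean over the 8 groups on this scale, 0.366, and its tests rest on few reads.

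The raffinose synthase-like gene DIN10 (TAIR10.1 chromosome 5, 6833564 to 6836862, plus strand) had the highest mean over the 8 groups in CPM per kilobase (79.2) and, of the 8, the smallest adjusted p for the line difference averaged over the 4 times. At ZT6 the Col-0 libraries had 3465, 3521 and 4525 rescaled reads and the jaz4-1 libraries 11084, 12333 and 17447. Every jaz4-1 library was above every Col-0 library, and the means (3837 ± 596 and 13621 ± 3371, SD, n = 3) stood in a ratio of 3.55. On the log2 scale of the deposited values jaz4-1 was higher by 1.80 ± 0.29 (SE), with an adjusted p of 0.00178. This call was kept in all 37 alternative fits, with values from 1.60 to 1.94.

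At dusk DIN10 read 1333, 1668 and 1135 in Col-0 and 1977, 2984 and 5308 in jaz4-1. The groups again did not overlap, with a ratio of means of 2.48, and the jaz4-1 libraries spread widely. The limma fit shares 1 spread over all groups, so the SE of the dusk difference, 1.21 ± 0.29, was that of the other times. That difference had an unadjusted p of 0.00052 and an adjusted p of 0.109 in limma. It passed with DESeq2 (adjusted p 0.00145) and without jaz4-1 ZT12 replicate 1 (1.54, adjusted p 0.00859), the lowest jaz4-1 library at dusk. These were 2 of 37 alternative fits, and over single libraries left out the dusk difference ran from 0.83 to 1.54. At dawn the values were 4720.2, 5382 and 8129 in Col-0 and 9135, 6734 and 8777 in jaz4-1, and at midnight 3176, 1878 and 1921 against 3115, 2088 and 2596. Both of these pairs of groups overlapped, with log2 differences of 0.46 ± 0.29 and 0.19 ± 0.29. Averaged over the 4 times DIN10 was higher in jaz4-1 by 0.91 ± 0.15 (adjusted p 0.00081), while its dependence on time (a range of 1.61 between the 4 differences) had an adjusted p of 0.339 (0.0127 with DESeq2).

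Over the day in Col-0, DIN10 fell from dawn (6077 ± 1807) through midday to its lowest level at dusk (1378 ± 269), and neighbouring times in the order of levels (ZT0, ZT6, ZT18, ZT12) did not overlap. The 4.41-fold span of means had an adjusted p of 2.57e-05. The step from midday to dusk, -1.48 ± 0.29, and the rise from midnight to dawn, 1.39 ± 0.29, passed; the step from dawn to midday, -0.63 ± 0.29 (adjusted p 0.0913), did not. In jaz4-1 the highest mean was at midday instead, 5.24-fold above that of midnight (adjusted p 1.50e-06). There the step from dawn to midday, 0.71 ± 0.29, did not pass (adjusted p 0.0557). The step from midday to dusk, -2.08 ± 0.29, and that from midnight to dawn, 1.67 ± 0.29, did. AT5G20260, on the opposite strand, overlaps DIN10, but its group means were at most 7.54 rescaled reads. Whether counting used the strand is not stated in the labels or notes.

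KMD1 (chromosome 1, 30241452 to 30243176, plus strand, 1 exon) had the smallest adjusted p of the 8 for the change over time (2.89e-10 in Col-0 and 1.97e-10 in jaz4-1), although SEN1 and ASN1 spanned more in Col-0. With limma over all libraries it was also the only one of the 8 whose line difference passed the test of dependence on time. At ZT12 the Col-0 libraries had 106, 168 and 196 rescaled reads and the jaz4-1 libraries 561, 1104 and 1416. The groups did not overlap, the means (157 ± 45.8 and 1027 ± 433) stood in a ratio of 6.56, and the log2 difference was 2.65 ± 0.29 with an adjusted p of 3.12e-05. It was kept in 36 of 37 alternative fits and lost with the 6 dusk libraries alone (adjusted p 0.267). At ZT6 KMD1 read 2721, 2822 and 2205 in Col-0 and 4160.3, 3222 and 3849 in jaz4-1. These did not overlap either, but 0.52 ± 0.29 did not pass (adjusted p 0.31).

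At midnight the order turned. KMD1 read 250.2, 161 and 196 in Col-0 and 158, 98.6 and 120.5 in jaz4-1, so every jaz4-1 library was lower, with a ratio of means of 0.62. The difference of -0.69 ± 0.29 had an unadjusted p of 0.0253 and an adjusted p of 1. At dawn the lines overlapped, with 1109.6, 1297 and 1417 against 1544, 971 and 852. The F test of whether the line difference varied with time gave an adjusted p of 0.00299 for KMD1, over a log2 range of 3.34, and 0.194% of all genes passed that test. The average difference, 0.56 ± 0.14 (adjusted p 0.0258), was lost with CPM (0.0523) and without Col-0 ZT0 replicate 1 (0.0534), Col-0 ZT18 replicate 2 (0.056) or jaz4-1 ZT18 replicate 1 (0.0573), the values in brackets being adjusted p.

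KMD1 rose from dawn to midday in both lines, by 1.02 ± 0.29 in Col-0 and 1.78 ± 0.29 in jaz4-1. From midday to dusk it fell by 4.07 on the log2 scale in Col-0 (adjusted p 2.21e-09), from a mean of 2582 ± 331 to 157 ± 45.8. In jaz4-1 that step was -1.96 ± 0.29, and a second fall of -2.95 ± 0.29 followed between dusk and midnight, where Col-0 had 0.39 ± 0.29 (adjusted p 0.39). The dusk level in jaz4-1 overlapped its dawn level, whereas the dusk level in Col-0 overlapped its midnight level. The highest mean stood 16.5-fold above the lowest in Col-0 (ZT6 over ZT12) and 29.8-fold in jaz4-1 (ZT6 over ZT18).

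Counts of reads for SEN1 (chromosome 4, 16944878 to 16946266, plus strand) nearly vanished at dusk in Col-0. Its 3 Col-0 libraries read 301, 87.0 and 199 at dawn, 164, 104 and 170.3 at midday, 2.25, 2.41 and 1.92 at dusk, and 17.04, 16.4 and 26.8 at midnight. Only dawn and midday overlapped, and the dawn mean was 89.3-fold above the dusk mean, which rests on 8 reads in all. The step from midday to dusk was -5.50 ± 0.67 (adjusted p 3.56e-06), that to midnight 2.69 ± 0.67 and that to dawn 3.08 ± 0.67. The rise to midnight was lost with a pseudocount of 10 (adjusted p 0.0511) and with limma-voom (0.216).

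In jaz4-1 SEN1 read 178, 103 and 263 at dawn, 204, 116 and 254 at midday, 1.68, 26.9 and 39.5 at dusk, and 13.4, 17.9 and 14.9 at midnight. Dusk was split: replicate 1 was at the Col-0 level and the others were above every Col-0 library. The line difference at dusk, 2.22 ± 0.68, had an adjusted p of 0.367. Without replicate 1, the lowest jaz4-1 library at dusk, it was 3.46 (adjusted p 0.000364), and DESeq2 gave 3.36 (adjusted p 0.00183). These were the 2 of 36 alternative fits in which it passed, and over single libraries left out it ran from 1.46 to 3.46. Without jaz4-1 ZT12 replicate 1 the dependence of the SEN1 difference on time also passed (adjusted p 0.0151), as did the average (0.85, adjusted p 0.0226). At the other times the differences were -0.04 ± 0.68, 0.33 ± 0.68 and -0.34 ± 0.68 for ZT0, ZT6 and ZT18. The fall from midday to dusk in jaz4-1 was -3.66 ± 0.67 and the rise from midnight to dawn 3.38 ± 0.67, both of which passed.

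ASN1 (chromosome 3, 17437840 to 17441431, minus strand) was high at dawn and midday and low in most dusk and midnight libraries of both lines. In Col-0 it read 389, 141 and 569 at dawn, 89.1, 118 and 142 at midday, 15.7, 4.81 and 0 at dusk, and 2.69, 9.49 and 83.1 at midnight. In jaz4-1 it read 530.1, 341 and 121 at dawn, 289, 289 and 410.4 at midday, 4.19, 1.68 and 96.6 at dusk, and 16.1, 18.8 and 12.8 at midnight. Dawn and midday overlapped in both lines, and so did dusk and midnight. The dawn mean stood 53.5-fold above the dusk mean in Col-0 (adjusted p 0.00107 for the change over time) and 20.8-fold above the midnight mean in jaz4-1 (0.00174).

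The step from midday to dusk was -4.65 ± 1.20 in Col-0 and -4.88 ± 1.20 in jaz4-1, and that from midnight to dawn 4.41 ± 1.20 and 4.07 ± 1.20. The Col-0 fall was lost with limma-voom (adjusted p 0.155) and without Col-0 ZT12 replicate 3 (0.0942), which is the library at 0. The Col-0 rise was lost without Col-0 ZT18 replicate 1 (0.0659), and the jaz4-1 rise without jaz4-1 ZT0 replicate 1 (0.0624) or with a pseudocount of 0.1 (0.0551). At midday every jaz4-1 library was above every Col-0 library, with means of 329 ± 70.2 and 116 ± 26.5 and a ratio of 2.83. Since single ASN1 libraries strayed far at other times, the shared spread was wide and the midday difference of 1.48 ± 1.22 had an adjusted p of 0.513. With the 6 midday libraries alone it passed (adjusted p 0.00834). At dusk the value of 1.32 ± 1.22 rested on jaz4-1 ZT12 replicate 3, without which it was -0.27. AT3G47341, which overlaps ASN1, is not in the table used here.

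DRM2 (chromosome 2, 14308754 to 14310608, minus strand) was the member with the opposite phase. In Col-0 it read 466, 231 and 612 at dawn, 568, 540.4 and 795 at midday, 1522, 1287 and 836 at dusk, and 1148, 1078 and 953 at midnight. Dawn overlapped midday and dusk overlapped midnight, and every dusk and midnight library was above every dawn and midday library. The dusk mean was 2.79-fold above the dawn mean in Col-0 (adjusted p 0.000946) and 2.51-fold in jaz4-1 (0.00805). In jaz4-1 it read 653, 547 and 416 at dawn, 982, 573 and 1384 at midday, 1164, 1495 and 1394 at dusk, and 928, 1005 and 1025 at midnight.

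For DRM2, midnight lay above dawn by 1.38 ± 0.31 in Col-0 (written as dawn minus midnight, -1.38, adjusted p 0.00253) and the jaz4-1 value was -0.89 ± 0.31 (0.0381). The jaz4-1 call was lost without any of 5 libraries, namely ZT0 replicates 2 and 3 and all 3 of ZT18. The jaz4-1 step from dawn to midday, 0.79 ± 0.31, passed narrowly (adjusted p 0.0453) and was lost in 18 of 37 alternative fits, with 0.50 as the lowest value, without jaz4-1 ZT6 replicate 3. Without jaz4-1 ZT0 replicate 3 the change over time in jaz4-1 also missed the threshold (0.0598). DRM2 did not pass between lines at any time, with differences of 0.39, 0.54, 0.18 and -0.10 (each ± 0.31) at the successive times.

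MCCA (chromosome 1, 739544 to 744184, plus strand), which had little spread within most groups, marked dawn in both lines. In Col-0 it read 1116, 768 and 1487 at dawn, 369.6, 408 and 433 at midday, 337, 349 and 335 at dusk, and 523, 516 and 534 at midnight. In jaz4-1 it read 1308, 1119 and 979 at dawn, 581, 617 and 645 at midday, 326, 315 and 399 at dusk, and 575, 510.1 and 535 at midnight. No neighbouring times overlapped in either line, but midday and midnight changed places: midnight was above midday in Col-0 and below it in jaz4-1. The dependence of the MCCA line difference on time did not pass limma's F test (unadjusted p 0.0578, adjusted p 0.752).

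The dawn mean of MCCA was 3.30-fold above the dusk mean in Col-0 (adjusted p 6.65e-08) and 3.28-fold in jaz4-1 (1.23e-07). From midnight to dawn it rose by 1.05 ± 0.16 in Col-0 and 1.06 ± 0.16 in jaz4-1, and from dusk to midnight by 0.62 ± 0.16 and 0.65 ± 0.16. The jaz4-1 rise from dusk to midnight was lost without jaz4-1 ZT12 replicate 2 (adjusted p 0.0536) or ZT18 replicate 1 (0.0506). From dawn to midday MCCA fell by 1.43 in Col-0 and by 0.88 in jaz4-1, and from midday to dusk the steps were -0.24 ± 0.16 (not called) and -0.83 ± 0.16 (called, but not with CPM, adjusted p 0.0563).

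At midday every jaz4-1 library of MCCA was above every Col-0 library, with means of 614 ± 31.7 and 403.5 ± 31.7 and a ratio of 1.52. The difference of 0.59 ± 0.16 lay at the threshold, with an adjusted p of 0.0503, and it passed in 13 of 37 alternative fits (0.0101 to 0.203 over all of them). The 13 include edgeR, DESeq2, the fit with the replicate number as a block (0.046) and the fits without each of 5 libraries from other times (Col-0 ZT0 replicates 1, 2 and 3, jaz4-1 ZT0 replicate 3 and jaz4-1 ZT12 replicate 3). The average over the 4 times, 0.18 ± 0.08, had an adjusted p of 0.221, or 0.0431 without Col-0 ZT0 replicate 3. MCCB, the partner subunit of MCCA in the same carboxylase, was singled out after its values were seen. It had a log2 range over time of 0.06 in Col-0 (adjusted p 0.965) and a line difference of 0.10 ± 0.11 at midday (0.654). AT1G03100, which overlaps MCCA, had group means of 11.9 to 66.0 rescaled reads.

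IVD (chromosome 3, 16621452 to 16625043, minus strand), the enzyme before MCCA in leucine breakdown, was steady. In Col-0 it read 360.1, 208 and 417 at dawn, 336, 320.1 and 324 at midday, 283, 306 and 365 at dusk, and 277, 332 and 338 at midnight. In jaz4-1 it read 470.1, 356 and 567, then 406, 295 and 331, then 342, 356 and 449.6, then 346, 292 and 329.5 at the same times. All neighbouring times overlapped, and the means spanned 1.04-fold in Col-0 (adjusted p 0.993) and 1.44-fold in jaz4-1 (0.154; 0.0489 without Col-0 ZT0 replicate 2). The dawn difference of 0.53 ± 0.21 was the only one of the 8 at ZT0 with an unadjusted p under 0.05 (0.017, adjusted 0.267).

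BCAT2 (chromosome 1, 3288087 to 3290471, plus strand), an aminotransferase that opens the pathway, was near the limit of detection. Its Col-0 libraries read 30.4, 4.28 and 17.4 at dawn, 3.34, 0.95 and 45.2 at midday, 7.49, 0 and 0 at dusk, and 4.48, 8.63 and 42.9 at midnight. Its jaz4-1 libraries read 20.7, 21.01 and 3.79, then 6.74, 4.11 and 11.6, then 5.03, 8.41 and 23.7, then 0.90, 12.2 and 8.53. Libraries of a group spread widely, all neighbouring times overlapped, and neither time nor line passed (adjusted p 0.124 and 0.809 over time). The change over time in Col-0 passed with a pseudocount of 0.1 (0.0315) and without Col-0 ZT6 replicate 3 (0.046) or Col-0 ZT12 replicate 1 (0.0396). The largest line difference of BCAT2 was 2.60 ± 1.14 at dusk, with an adjusted p of 0.923. AT1G10090, on the opposite strand, overlaps BCAT2 and had group means of 217 to 817 rescaled reads, so reads counted without strand could mix the genes.

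Set side by side, the line differences of the 8 genes were above 0 at midday and dusk and mixed at dawn and midnight. At ZT0 limma called 0 of 8 (0.923% of all genes called), with 1 of 8 at an unadjusted p under 0.05, and all 37 alternative fits, edgeR, DESeq2 and limma-voom among them, also called 0. At ZT6 limma called 1 of 8 (2.95% of all genes) and at ZT12 1 of 8 (0.321%), with 2 of 8 and 4 of 8 at an unadjusted p under 0.05. At ZT18 it called 0 of 8 (0.138%), with 1 of 8 at an unadjusted p under 0.05, and the alternative fits again called 0. The share of all genes at an unadjusted p under 0.05 is not given here. For the average of the 4 times 2 of 8 passed (4.68%), and for the dependence on time 1 of 8 (0.194%). All 8 values were above 0 at ZT6 and at ZT12, against 4 of 8 at ZT0 and at ZT18. The BCAT2 value at ZT6 (0.09) went against the group means of its rescaled reads, whose ratio was 0.45, and turned below 0 with a pseudocount of 10 (-0.23), edgeR (-1.13) and DESeq2 (-1.14). With CPM, IVD and BCAT2 at ZT6 and MCCA at ZT12 turned below 0, and that scaling moved the median of all genes at ZT6 by -0.196. The median difference of the 8 was 0.53 at ZT6 and 1.26 at ZT12, against -0.037 and 0.0050 over all genes. The ZT12 median lay between DIN10 (1.21) and ASN1 (1.32). Without jaz4-1 ZT12 replicate 3, ASN1 (-0.27) and MCCA (-0.093) turned below 0 at ZT12, and without Col-0 ZT12 replicate 3 DRM2 did (-0.065). The 8 genes share the same libraries and were chosen with earlier results known, so these are not 8 independent values.

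Counted by libraries, 4 of 8 genes did not overlap between lines at ZT6 and all 4 were higher in jaz4-1 (DIN10, ASN1, MCCA and KMD1), where 26.8% of all genes did not overlap in either direction and 14.9% were higher. At ZT12 2 of 8 did not overlap, both higher (DIN10 and KMD1), against 14.6% and 7.71% of all genes. At ZT18 1 of 8 did not overlap and was lower (KMD1), against 10.2% and 5.08%, and at ZT0 0 of 8, against 11.3%.

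**Figure D2:**
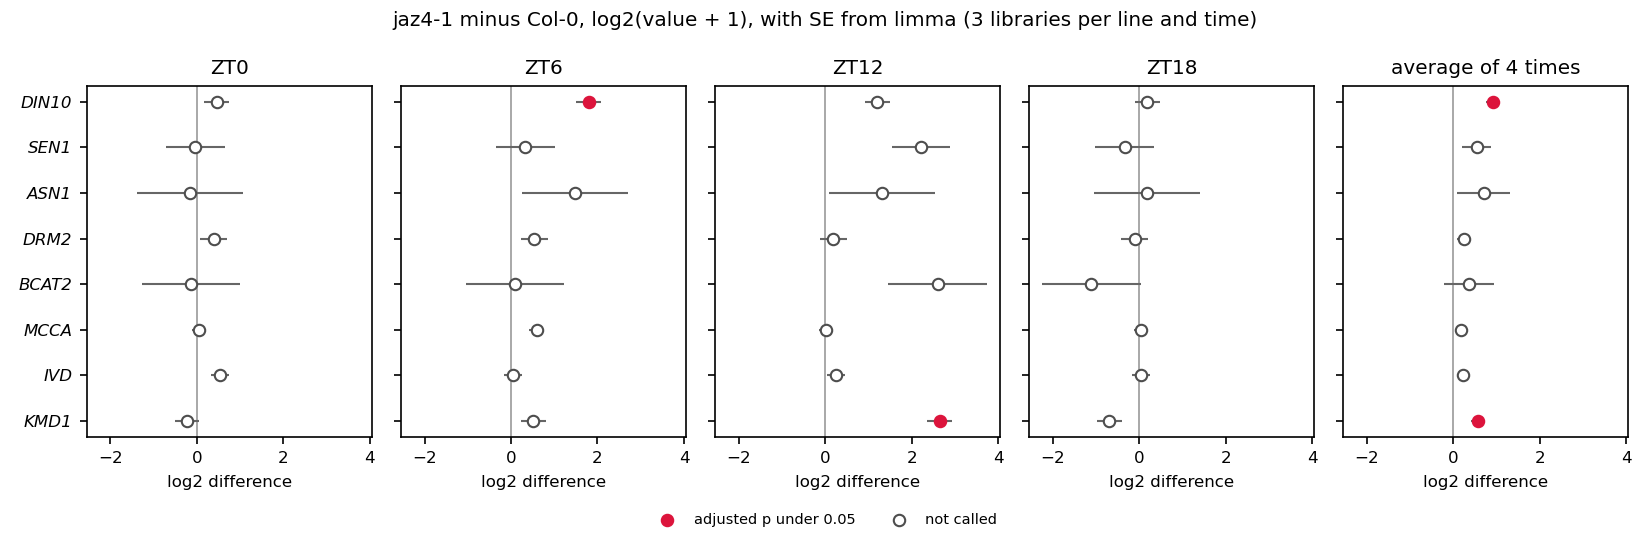
jaz4-1 minus Col-0 for the 8 genes as a log2 difference of the deposited values plus 1, at each time and averaged, with bars of 1 SE from limma and 3 libraries per line and time. Filled points passed at an adjusted p under 0.05: DIN10 at ZT6 (1.80), KMD1 at ZT12 (2.65) and both in the average (0.91 and 0.56); the wide bars of ASN1 and BCAT2 show their spread.

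The authors' deposited table of comparisons, with its own fold changes, listed 4 of the 8 at an adjusted p under 0.05 at midday. In that table DIN10 had a log2 fold change of 1.65, ASN1 of 1.24, MCCA of 0.55 and KMD1 of 0.49, all higher in jaz4-1. BCAT2 had no adjusted p there at midday, and the share of all genes listed in that table was not counted. At dusk the authors' deposited table listed KMD1 alone, at 0.90, and at dawn and midnight none. ASN1 and BCAT2 had no adjusted p there at dusk. For KMD1 at dusk the limma fit gave 2.65, so the sizes of the 2 sets of fold changes are not like for like. ASN1, MCCA and KMD1 did not pass at midday in the limma fit, although their libraries did not overlap between lines. In that fit all 8 groups shared 1 estimate of the spread. With the 6 midday libraries alone ASN1 (adjusted p 0.00834) and MCCA (0.0387) passed in limma. KMD1 did not pass at midday in any of 37 alternative fits (lowest adjusted p 0.0824). Why the 2 sets of calls differ was not tested.

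Step by step, the share of the 8 that passed can be set beside all genes. In Col-0, 2 of 8 passed from dawn to midday (40.2% of all genes), 4 of 8 from midday to dusk (11.7%), 2 of 8 from dusk to midnight (15.4%) and 6 of 8 from midnight to dawn (22.7%). In jaz4-1 the counts were 3 of 8 (42.5%), 5 of 8 (19%), 2 of 8 (13.1%) and 6 of 8 (26.9%). The midday-to-dusk steps were all falls: DIN10, SEN1, ASN1 and KMD1 in Col-0, and these with MCCA in jaz4-1, where falls made up 7% and 10.7% of all genes. Of the 6 that passed from midnight to dawn in each line, DIN10, SEN1, ASN1, MCCA and KMD1 rose and DRM2 fell.

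Within a group the genes strayed together. In jaz4-1 ZT12 replicate 1 all 8 genes were below their group mean, by a median of -0.72 on the log2 scale, and in replicate 3 all 8 were above it, by 0.66. In Col-0 ZT0 replicate 2, the library with the fewest detected genes, 7 of 8 were below (median -0.70), and in replicate 3 all 8 were above (0.43). In jaz4-1 ZT6 replicate 2, with the second fewest genes detected, 7 of 8 were below (-0.21). Over 24 libraries, Pearson's r of these deviations was above 0 for 27 of 28 pairs of genes, with a median of 0.38. These values share each library's plants and scaling, and the part of library quality in them was not tested. The same counts were not made over all genes, so the straying is not shown to be particular to these 8. For the levels themselves, which share the 4 times, r was 0.87 for SEN1 with ASN1, 0.85 for DIN10 with SEN1 and 0.80 for DIN10 with KMD1. DRM2 had values of -0.58 with MCCA and -0.57 with SEN1, although the deviations of DRM2 and MCCA within groups had an r of 0.66.

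**Figure D3:**
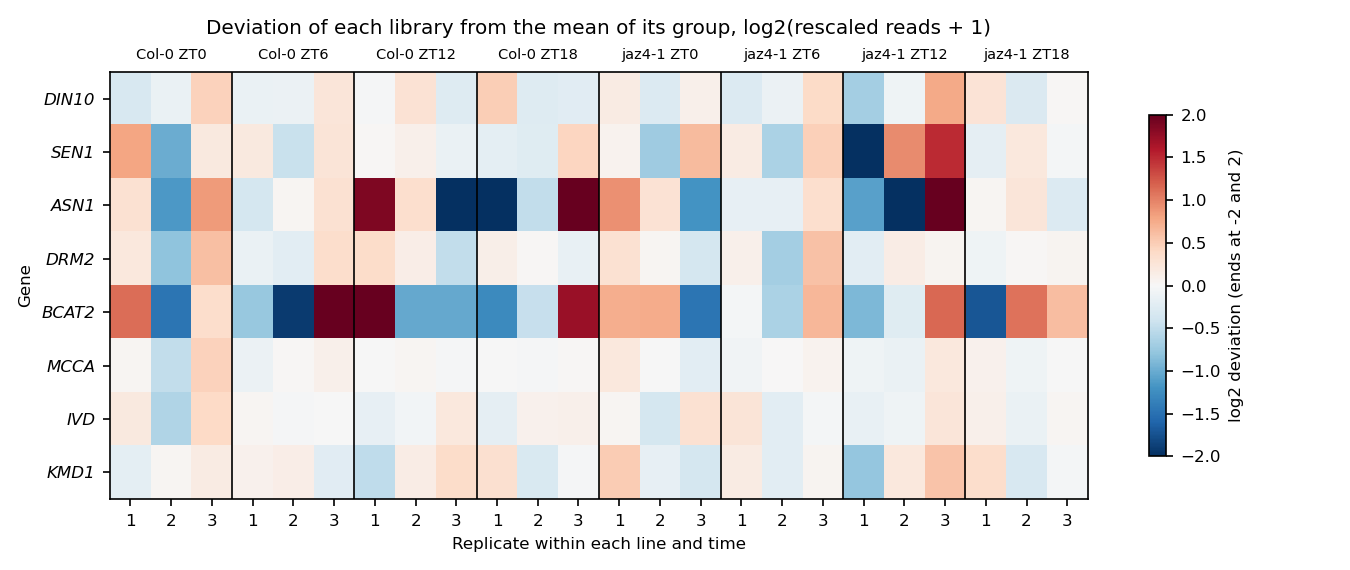
Deviation of each library from the mean of its line and time, in log2(rescaled reads + 1), for 8 genes (rows) and 24 libraries (columns, 3 replicates per group); colours end at -2 and 2. In jaz4-1 ZT12 all 8 genes are below the mean in replicate 1 and above it in replicate 3.

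Among signalling genes of the same pathway, 3 of 9 group C and S1 bZIP factors passed at ZT6, all higher in jaz4-1, where 2.95% of all genes passed. The median difference of the 9 was 0.15, and values below 0 that did not pass included bZIP44 (-1.47 ± 0.53, adjusted p 0.122) and bZIP11 (-0.53 ± 0.21, 0.161). bZIP53 had means of 2386 ± 571 rescaled reads in Col-0 and 4349 ± 249 in jaz4-1, a log2 difference of 0.88 ± 0.16 (adjusted p 0.00411). bZIP1 had 309 ± 68.2 and 573 ± 143 (0.87 ± 0.22, 0.0339), and bZIP63, a direct SnRK1 substrate, 783 ± 120.2 and 1163 ± 111 (0.56 ± 0.15, 0.0389). With CPM 0 of the 9 passed, and 1 passed with the 6 midday libraries alone or without the 2 libraries with the fewest detected genes. bZIP53 kept its call in 36 of 37 alternative fits, bZIP1 in 31 and bZIP63 in 29. Among single libraries, bZIP1 was lost without Col-0 ZT6 replicate 1 or 2 or jaz4-1 ZT6 replicate 2, and bZIP63 without these or without jaz4-1 ZT6 replicate 1 or 3.

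At dusk 1 of the 9 passed, against 0.321% of all genes. This was bZIP63, with 209.6 ± 20.7 in Col-0 and 359.6 ± 56.0 in jaz4-1 (0.76 ± 0.15, adjusted p 0.0182), a call kept in 30 of 37 alternative fits and lost without Col-0 ZT12 replicate 1 or 2 or jaz4-1 ZT12 replicate 2 or 3. In the average of the 4 times, where 4.68% of all genes passed, bZIP53 (0.39) and bZIP63 (0.31) were higher and bZIP11 lower (-0.36, adjusted p 0.0499, kept in 11 of 36 alternative fits). Over the day 7 of 9 changed in Col-0 and 8 of 9 in jaz4-1, against 49.1% and 53.5% of all genes. bZIP63 fell from 2454 ± 112 at dawn to 209.6 ± 20.7 at dusk in Col-0, the direction of MCCA and ASN1, while bZIP11 was highest at dusk (1245 ± 207 in Col-0), like DRM2.

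Of 7 subunits of the SnRK1 kinase, 0 passed between lines at any time with limma, with 2 at an unadjusted p under 0.05 at ZT6, and 1 was called there with DESeq2, with CPM and without Col-0 ZT0 replicate 3. Over the day 3 of 7 changed in each line, a share below the 49.1% and 53.5% of all genes: KINB1, a regulatory beta subunit, by a range of 2.45 in Col-0, KING1 by 0.97 and KINB2 by 0.39. KINB1 had 1965 ± 447 rescaled reads at dawn and 353 ± 12.6 at dusk in Col-0. With CPM 5 of the 7 changed in Col-0 and all 7 in jaz4-1. The catalytic subunit KIN10 was not among the 3.

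For other lists of the same biology, counts over the day are to be read against the 49.1% of all genes that changed in Col-0 and the 53.5% in jaz4-1. Of the 5 other DIN genes, 0 passed between lines at any time, also in all 37 alternative fits, and 3 changed over the day in Col-0 (DIN9, DIN4 and DIN3, by 1.68, 0.89 and 0.62) and 2 in jaz4-1 (DIN4 and DIN3). With CPM 0 of these 5 changed in either line, and in jaz4-1 0 changed without ZT0 replicate 1 and 1 without ZT0 replicate 2 or 3. DIN3 and DIN4 are subunits of the branched-chain keto acid dehydrogenase, the step between BCAT2 and IVD. Of 20 other genes of branched-chain amino acid breakdown, 0 passed between lines at any time with limma (3 at an unadjusted p under 0.05 at ZT0 and at ZT6, 2 at ZT12 and 0 at ZT18), while other fits called up to 2 at ZT0 (1 with DESeq2, 2 without Col-0 ZT0 replicate 3) and up to 2 at ZT6 (2 with CPM, 1 with DESeq2 and without Col-0 ZT0 replicate 1 or 2 or jaz4-1 ZT6 replicate 3). Over the day 13 of the 20 changed in each line, not far above the share of all genes. BCAT1, an aminotransferase relative of BCAT2, changed over the day in Col-0, with 21.4 ± 14.3 rescaled reads at dawn and 131 ± 23.03 at dusk.

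Of 7 other genes known to rise in starvation, 1 passed between lines, at dusk (0.321% of all genes): AT3G15450, with 399 ± 200.2 rescaled reads in Col-0 and 1756 ± 537 in jaz4-1. Its log2 difference of 2.23 ± 0.38 had an adjusted p of 0.00919 and was lost without Col-0 ZT12 replicate 1 or jaz4-1 ZT12 replicate 3 and with the dusk libraries alone. ATG8E, an autophagy gene, and PRODH1, a proline-degrading enzyme, changed over the day in both lines (ranges of 2.11 and 1.82 in Col-0). Of 4 genes that sugar raises, 0 passed between lines at any time with limma (1 at an unadjusted p under 0.05, at ZT12), nor in any of the 37 alternative fits. TPS5, a trehalose-phosphate synthase-like gene of that list, was highest at dusk in Col-0 (918 ± 295), when DIN10, SEN1 and ASN1 were lowest.

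The nearest relatives of the members did not all follow them. ASN2, an asparagine synthetase known to be raised by light, had 10701 ± 1071 rescaled reads at dawn and 11203 ± 2235 at midnight in Col-0. Its Col-0 level was lower at midday (3306 ± 510) and dusk (2595 ± 225), so it was not highest in the light here. ASN1 was at 31.8 ± 44.6 in Col-0 at midnight. KMD2 and KMD4, kelch F-box relatives of KMD1, passed neither between lines nor over time. At dusk their line differences were 0.92 ± 0.39 and 2.68 ± 1.06. The KMD4 value rests on few reads, with dusk means of 3.37 rescaled reads in Col-0 and 19.3 in jaz4-1. The KMD2 libraries of jaz4-1 at dusk had a median of 100.6 and a highest value of 305.6. DRM1, the relative of DRM2, changed over the day in both lines and was highest at midnight in Col-0 (1735 ± 206) and at dusk in jaz4-1 (2016 ± 211). With limma it passed neither between lines at any time nor for dependence of that difference on time, although its unadjusted p at dusk was under 0.05. Of 4 raffinose synthase-like relatives of DIN10, RS2 was higher in jaz4-1 in the average of the 4 times (0.68 ± 0.16, adjusted p 0.02), and limma called 0 at any single time (1, 2, 1 and 0 at an unadjusted p under 0.05 at the successive times), as did edgeR, DESeq2 and limma-voom; CPM and the fit without Col-0 ZT6 replicate 3 called 1 at ZT6.

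**Figure D4:**
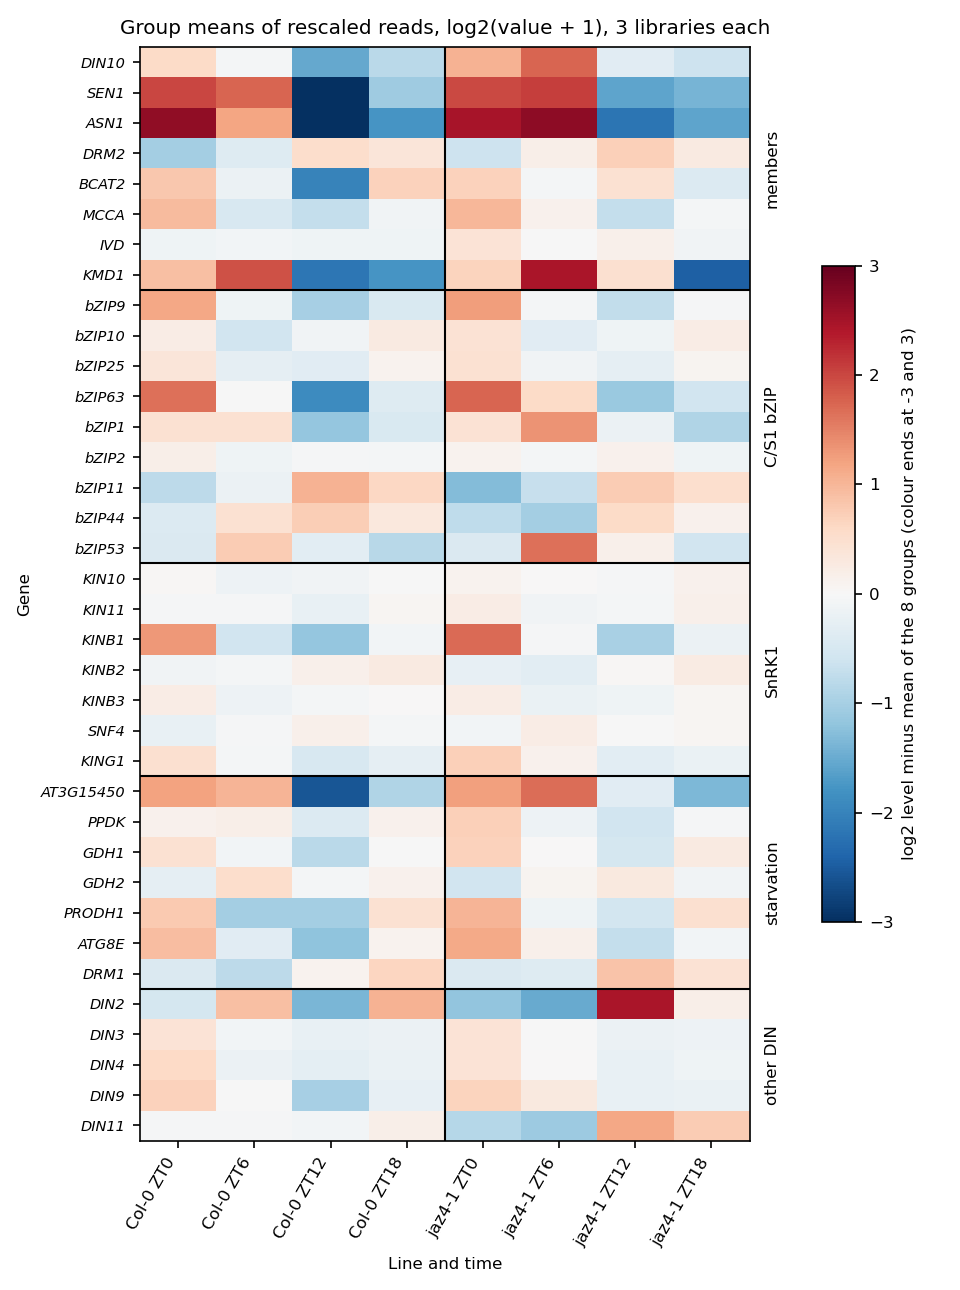
Group means of log2(rescaled reads + 1), each gene minus its mean over the 8 groups (colours end at -3 and 3), for the 8 genes and 4 of the lists named above; 3 libraries per group, and genes that did not pass a test are drawn too. bZIP63, KINB1 and AT3G15450 are lowest at ZT12 in Col-0, as are DIN10, SEN1 and ASN1, while bZIP11 and DRM2 are highest there.

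Among the 17459 tested genes with a mean of at least 1 CPM, the genes closest to each member over 24 libraries were ranked by Pearson's r of log2 values, as a description in which shared times weigh heavily. For KMD1 the closest was AT1G23390, annotated as a kelch-repeat F-box protein, at 0.98, followed by AT2G20670 at 0.97. For MCCA it was KINB1, listed as AKINBETA1 in the table, at 0.97. For DIN10 it was TPS8 at 0.95, for SEN1 AT1G49500 and TPS11 at 0.94 each, and for ASN1 EDS16 at 0.91. DRM2 lay nearest to AT4G33985 at 0.90 and IVD to AP4M at 0.86. BCAT2 had no near neighbour by this measure, with NAC92 highest at 0.69. For the mean z score of all 8, LBD38, a LOB-domain factor, was highest at 0.89, and AT3G15450 was among the first 10 at 0.87.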

How the data were processed

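Rosette RNA-seq libraries were made with a NEBNext Ultra kit and sequenced as paired ends, per the labels' protocols; HISAT2, featureCounts and the TAIR10 build are named in the submitters' processing notes, and no source states the strand setting. The authors' table heads its per-library columns RPKM, but the values are a normalised signal: 100.0% were whole reads (within 0.001) after multiplication by 1 size factor per library, and those factors equal median-of-ratios factors over the 6 libraries of a time. The authors also deposited log2 fold changes and p-values of their own comparisons. From the values, reads were recovered; comparisons of lines used the deposited values, and comparisons of times used reads rescaled by median-of-ratios over all 24 libraries.

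limma 3.58.1 (R 4.3.3; trend, robust) was fitted to log2(value + 1) with 8 coefficients, 1 per line and time, after edgeR's filterByExpr (minimum count 10), and p-values were adjusted by Benjamini-Hochberg over 19614 genes. The count tests planned for raw counts served as alternatives, because the values are scaled: edgeR 4.0.16, DESeq2 1.42.0 and limma-voom on the recovered reads. Other alternatives were pseudocounts of 0.1 and 10, low-value filters, scalings, a replicate block, subsets of libraries and leaving out each of the 24 libraries. The named genes are the 8 members and, from each list, the genes with the smallest adjusted p between lines or the largest range over time. The members and lists were chosen with earlier results of these data known. Sequences are from RefSeq TAIR10.1.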

Additional observations from a re-analysis of the deposited data

Results flagged for a closer look

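KMD1 stood out because its line difference was not the same at all times. The 4 log2 differences spanned 3.34, and limma's F test of their dependence on time gave an adjusted p of 0.00299. This call was kept in all 36 alternative fits (adjusted p 8.81e-13 to 0.0174).

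For KMD1, every jaz4-1 library was also below every Col-0 library at midnight, with a ratio of means of 0.62, although every jaz4-1 library was above at midday. Neither difference passed limma's test at its own time (adjusted p 0.31 at midday, unadjusted p 0.0253 at midnight). Of all genes, 5.08% lay lower without overlap at midnight and 14.9% higher at midday. The contrast of those 2 times alone was not tested apart from the F test.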

How the results depend on the processing

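Counts of the 8 genes called depended on the fit at some times. At ZT6 the count of 1 became 2 with a pseudocount of 10, a mean of at least 1 CPM (7 of the 8 tested), median-of-ratios over all libraries, edgeR and DESeq2. It also became 2 with the replicate block and without the 2 libraries with the fewest detected genes. It was 3 with the midday libraries alone (7 of the 8 tested), and leaving out single libraries gave 1 to 2. At ZT12 the count of 1 became 3 with DESeq2 (1 to 3 over single libraries left out). It became 0 with the dusk libraries alone, where only 5 of the 8 were tested. The average went from 2 to 1 with CPM (1 to 3), and the dependence on time from 1 to 3 with DESeq2 (1 to 2). From dusk to midnight the Col-0 count went from 2 to 1 with a pseudocount of 10 and with limma-voom, and the jaz4-1 count was 1 to 2 over single libraries left out. The cause was not tested.

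No line difference that passed the test reversed. Small differences did: without the 2 libraries with the fewest genes, DRM2 (-0.019) and MCCA (-0.20) at ZT0. BCAT2 at ZT6 was -0.23 with a pseudocount of 10, -0.078 with CPM, -1.13 with edgeR and -1.14 with DESeq2, and its average was -0.13 and -0.11 with the last pair. With CPM IVD at ZT6 was -0.15 and MCCA at ZT12 -0.018. ASN1 at ZT18 was -0.13 with a pseudocount of 10, -0.97 with edgeR and -0.996 with DESeq2. Leaving out single libraries, differences ran from -0.54 to 0.36 (SEN1 ZT0), -0.75 to 0.43 (ASN1 ZT0), -0.019 to 0.69 (DRM2 ZT0), -0.86 to 0.58 (BCAT2 ZT0), -0.20 to 0.28 (MCCA ZT0), -0.85 to 1.41 (BCAT2 ZT6), -0.073 to 0.15 (IVD ZT6), -0.27 to 2.37 (ASN1 ZT12), -0.065 to 0.37 (DRM2 ZT12), -0.093 to 0.082 (MCCA ZT12), -0.83 to 1.44 (ASN1 ZT18), -0.00085 to 0.078 (MCCA ZT18) and -0.061 to 0.098 (IVD ZT18).

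The background counts over all genes moved too. At ZT6 578 were called, 166 (without Col-0 ZT6 replicate 1) to 1209 (without jaz4-1 ZT6 replicate 3) over single libraries left out, 241 without the 2 libraries with the fewest detected genes and 1164 with DESeq2. At ZT0 181 became 92 (without jaz4-1 ZT0 replicate 1) to 665 (without Col-0 ZT0 replicate 3), 29 with the dawn libraries alone and 355 with DESeq2. At ZT12 63 became 22 (without jaz4-1 ZT12 replicate 3) to 126 (without jaz4-1 ZT12 replicate 1), 25 with the dusk libraries alone and 165 with DESeq2. The libraries were not treated as paired by replicate number, since not every same-numbered pair correlated over 0.1 in its deviations: 7 of 12 did (-0.098 to 0.33), all 3 at ZT0 among them, against 2 of 24 differently numbered pairs, which is a hint from the data and not from the labels. The replicate block changed the call of MCCA at ZT6 alone among the line differences of the 8 genes (adjusted p 0.046). That block gives each replicate number 1 shift shared by all lines and times, so it cannot test pairing within a time. Depth limits BCAT2, SEN1 and ASN1 at dusk in Col-0, which had 10, 8 and 27 reads over 3 libraries. Each group holds 3 libraries, reads are not molecules, and errors cover the spread between these pools of rosettes.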
